A study of Drosophila melanogaster with 1908 samples.

Results

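Drosophila embryos collected 1 to 3 hours after egg laying were compared with embryos collected 0 to 2 hours after egg laying, using single-nucleus RNA profiles from an atlas of embryogenesis. Members were the nuclei that the deposited nucleus table assigns to the 1-3 h or the 0-2 h window in experiments 2, 10, 11 and 12. They numbered 134835 of the 547805 nuclei of the atlas, of which 55984 came from 1-3 h embryos and 78851 from 0-2 h embryos. All embryos were wild-type Canton S, collected in bulk after pre-lays and aged to the window, so a nucleus carries the age of its window and not of 1 embryo. No genotype or treatment differed between the windows, and the windows overlap by 1 h.

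The first hours of fly development run on RNA that the mother loaded into the egg. Nuclei divide rapidly without cell membranes, the zygotic genome is switched on in a minor and then a major wave around the slowing of those divisions, cell membranes then enclose the nuclei at the surface, and much of the maternal RNA is destroyed over the same period. The earliest zygotic transcripts come largely from short genes with few introns. Zygotic transcripts of the first hours also include those of the segmentation cascade (gap, pair-rule, segment polarity and homeotic genes). Dorsal-ventral patterning genes, genes that build the new cell membranes and the sex determination counters are switched on as well.

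Libraries came from sci-RNA-seq3, in which the combined barcodes of a nucleus include those of its reverse transcription well and its PCR well. The window of a nucleus was read from its reverse transcription barcode, and each of the 714 PCR wells can hold nuclei of both windows. No reverse transcription barcode and no whole barcode of an experiment was shared by the windows, which follows from how the window was read. Unique molecular identifiers (UMIs, counted molecules) were summed per experiment and window into 8 sums, and each 1-3 h sum was set against the 0-2 h sum of its own experiment. The sources used here do not state whether the experiments used separate embryo collections, so p-values measure the spread between experiments, which may be technical.

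Experiment 2 gave the fewest nuclei in both windows, and experiments 10 and 12 gave the most at 1-3 h. Sums held 462334 to 18138014 UMIs at 1-3 h and 1629837 to 35733778 UMIs at 0-2 h, so experiment 2 is the least precise and a low gene can be at 0 there. The median number of UMIs per nucleus was lower at 1-3 h in 4 of 4 experiments (mean log2 ratio -0.27 ± 0.23 SD, n = 4). An exact two-sided sign-flip test over the experiments gave p = 0.125, the smallest 4 pairs allow. Mitochondrial UMIs made up 0.586% to 0.926% of a sum at 1-3 h and 0.530% to 0.733% at 0-2 h (mean difference 0.119 ± 0.200 percentage points, exact p = 0.375, n = 4). Ribosomal protein genes took 1.62% to 5.57% at 1-3 h and 1.64% to 4.60% at 0-2 h (mean difference 0.111 ± 0.578 percentage points, exact p = 1, n = 4).

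The age that the authors inferred for each nucleus, from a neural network trained on the same expression values, separates the windows only in part. Its median per sum was 1.62, 1.42, 1.30 and 1.39 h at 1-3 h in experiments 2, 10, 11 and 12, and 1.54, 1.10, 0.797 and 0.967 h at 0-2 h. Some nuclei were far older than their window by this measure. Nuclei of an inferred age of 4 h or more made up 5.69%, 7.25%, 1.12% and 1.18% at 1-3 h, against 15.8%, 7.90%, 0.214% and 1.16% at 0-2 h. They were more frequent at 1-3 h in 2 of 4 experiments (mean difference -2.45 ± 5.13 percentage points, exact p = 0.75, n = 4). Counts of list members are therefore also given without these nuclei wherever the number that rose or fell differs. The number tested changed in some other lists too.

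Between 1-3 h and 0-2 h embryos, 2620 of 7620 genes and transposon rows with enough UMIs (34.4%) changed at a false discovery rate of 0.05. Of these, 1124 (14.8%) rose and 1496 (19.6%) fell, in edgeR's quasi-likelihood test with the experiment as a block and Benjamini-Hochberg adjustment. The order of the 2 counts depended on the setting, since DESeq2 called 9.005% of 16268 genes higher and 8.35% lower, but the rises were larger than the falls. By at least 1 log2 unit, 6.33% of those tested rose and 4.03% fell, by at least 2 units 4.37% rose and 0.105% (8) fell, and by at least 3 units 1.27% (97) rose and none fell. The risen genes of at least 1 unit were rare transcripts, with a median of 10.27 counts per 1000000 UMIs (CPM) at 1-3 h and 2.33 CPM at 0-2 h. The fallen ones had a median of 13.03 CPM at 1-3 h and 31.3 CPM at 0-2 h.

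The ranges of the 4 sums of each window did not overlap for 818 of the 7620 (10.7%), 758 of them called, and 2404 of the called genes moved the same way in 4 of 4 experiments. Without the experiment as a block, 4.36% were called, 3.01% higher and 1.352% lower. The count was 1410 without experiment 12 and 1836 without experiment 11. CPM are shares of a sum, so a transcript can fall because others rose, and fewer nuclei with a transcript and less of it per nucleus cannot be told apart in these sums.

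In the following, the 4 values of a window are CPM scaled by the trimmed mean of M-values (TMM) and stand in the order of experiments 2, 10, 11 and 12. Fold changes are log2 ± SE from the same edgeR fit, with adjusted p. Coordinates are those of the dm6 assembly. Over all 7620 the median fold change was 0.0045. Each list count below stands beside 14.8% that rose and 19.6% that fell over all tested. Each count without overlap stands beside 10.7%.

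The 10 largest rises with at least 10 CPM at 1-3 h included Pka-C3, which encodes a catalytic subunit of cAMP-dependent protein kinase (3L:15925805-15954797). Pka-C3 had 138.8, 30.97, 59.97 and 28.5 CPM at 1-3 h, against 0.58, 0.341, 3.68 and 2.56 CPM at 0-2 h (log2 4.52 ± 0.42, adjusted p = 1.3e-05). Every 1-3 h sum lay above every 0-2 h sum by a wide margin, and the 0-2 h levels of experiments 2 and 10 were the lowest. The noncoding RNA lncRNA:bxd, transcribed upstream of Ubx in the bithorax complex (3R:16742125-16773189), had 34.7, 23.5, 26.7 and 20.1 CPM at 1-3 h, against 0, 0.478, 1.61 and 1.38 CPM at 0-2 h (log2 4.49 ± 0.39). The noncoding RNAs lncRNA:CR44931 (3R:6877678-6885278), annotated between ftz and Antp, and lncRNA:CR42651 (3R:6808796-6816379), annotated beside Scr, lie in the Antennapedia complex. They rose by 4.01 and 3.88 log2 units.

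The largest fitted rise of all was that of lncRNA:CR44396, at 4.66 ± 0.67, but its span (2L:17245856-17246617) lies inside that of beat-IIIc (2L:17187637-17260734), an immunoglobulin-type recognition protein that rose by 4.04 ± 0.50. The sources used here do not say whether counting used strand, so the 2 cannot be told apart. beat-IIIc varied widely among experiments, with 180.1, 43.7, 459.4 and 46.3 CPM at 1-3 h and 1.16, 9.9, 8.72 and 4.35 CPM at 0-2 h, and the windows still did not overlap. The others of the 10 were the head homeobox gene hbn (3.79 ± 0.52), the pair-rule gene opa (3.77 ± 0.26), the membrane transporter gene Mdr49 (3.73 ± 0.39) and the gap gene gt (3.56 ± 0.31). Thus 4 of the 10 were annotated as noncoding RNAs.

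Segmentation genes rose together. Of 14 gap, terminal and head genes tested, 11 rose and none fell (median log2 2.86), and all 11 had windows that did not overlap. Of 10 pair-rule genes, 9 rose and none fell (median 2.84), all 9 without overlap. Of 13 segment polarity and homeotic genes tested of 15, 8 rose and none fell (median 1.84), 5 without overlap.

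Kr, the gap gene of the central segments (2R:25226611-25231394), had 49.9, 38.97, 77.6 and 76.4 CPM at 1-3 h, against 2.9, 4.3, 10.9 and 9.33 CPM at 0-2 h (log2 3.08 ± 0.17, adjusted p = 6.3e-07). Each 1-3 h level was several times its 0-2 h partner, and Kr was higher in experiments 11 and 12 than in experiments 2 and 10 in both windows. For kni, a nuclear receptor family gap gene of the abdomen (3L:20692330-20695378), levels were 39.05, 51.3, 70.6 and 52.3 CPM at 1-3 h and 1.74, 5.19, 8.34 and 6.01 CPM at 0-2 h (log2 3.23 ± 0.18). The giant gene gt, a leucine zipper repressor (X:2427113-2428967), had 88.9, 53.7, 54.5 and 44.6 CPM at 1-3 h and 2.9, 1.98, 6.74 and 6.15 CPM at 0-2 h. The terminal gene tll (3R:30852315-30854400), which the Torso pathway activates at the poles, rose by 3.33 ± 0.25.

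The 3 genes of this list that did not pass the test, hb, cad and cnc, were already abundant in every sum. Here hb, whose transcript is both maternal and zygotic, had 379.6, 436.3, 504.8 and 366.1 CPM at 1-3 h and 390.7, 419.5, 469.9 and 343.8 CPM at 0-2 h (log2 0.06 ± 0.06, adjusted p = 0.46). Likewise cad, also loaded maternally, had a fold change of 0.04 ± 0.06, and cnc one of -0.09 ± 0.06.

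Of the pair-rule genes, ftz, a homeodomain factor of the even stripes (3R:6864324-6866244), had 39.05, 27.5, 37.6 and 40.1 CPM at 1-3 h, against 1.16, 1.43, 4.06 and 5.15 CPM at 0-2 h (log2 3.502 ± 0.28, adjusted p = 4.1e-06). Its 1-3 h levels were alike in the 4 experiments, while its 0-2 h levels were lowest in experiments 2 and 10. For eve, a homeodomain repressor (2R:9979319-9980795), levels were 49.9, 18.5, 23.1 and 25.3 CPM at 1-3 h and 1.74, 0.751, 3.18 and 4.15 CPM at 0-2 h (log2 3.37 ± 0.36). The late-acting pair-rule factor opa (3R:4852813-4869979) had 95.5, 40.8, 94.9 and 39.8 CPM at 1-3 h and 1.74, 2.05, 7.65 and 4.67 CPM at 0-2 h. The lowest 1-3 h level of each of these 3 genes was above its highest 0-2 h level, and prd, a paired-domain factor, rose by 3.42 ± 0.42. The exception to the calls was sob, an odd-related zinc finger gene with 0 to 3.48 CPM in any sum (log2 1.82 ± 0.77, adjusted p = 0.089).

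Among segment polarity and homeotic genes, the Hedgehog receptor gene ptc (2R:8649649-8665223) had 108.5, 42.9, 106.2 and 56.1 CPM at 1-3 h, against 5.22, 7.58, 12.6 and 6.22 CPM at 0-2 h (log2 3.07 ± 0.20, adjusted p = 1.3e-06). The homeotic gene Antp (3R:6896253-6999228) had 65.1, 28.3, 39.6 and 24.1 CPM at 1-3 h, against 0.58, 14.3, 6.11 and 1.83 CPM at 0-2 h (log2 2.74 ± 0.48). Its 0-2 h level in experiment 10 stood above those of the other experiments. The T-box gene mid and the Wnt ligand gene wg rose by 2.31 ± 0.65 and 2.09 ± 0.46. The count for these genes turned on single experiments, with 3 higher without experiment 12, 4 without experiment 11 and 12 without experiment 10, and 1 without the experiment as a block.

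Markers of differentiated tissue moved with these rises. Of 19 marker genes of muscle, neurons, fat body, hemocytes, glia, trachea, salivary gland and cuticle, 15 were tested, 10 rose and none fell (median log2 2.03), and every one of the 19 had UMIs, although the hemocyte gene Hml and the cuticle gene Cpr65Ea had 0 at 0-2 h. Their summed level was 67.05, 527.8, 292.3 and 159.06 CPM at 1-3 h, against 17.8, 341.4, 64.98 and 16.4 CPM at 0-2 h, scaled by library size. The muscle myosin gene Mhc had 0, 45.2, 96.8 and 11.3 CPM at 1-3 h and 2.32, 24.4, 10.7 and 0.173 CPM at 0-2 h, so its windows overlapped and experiment 2 held none at 1-3 h. In experiment 11, the Mhc level at 1-3 h came from 24 of 4455 nuclei. The synaptic gene Syt1 had a fold change of 2.68 ± 0.66, the active zone gene brp 2.64 ± 0.64 and the collagen gene Col4a1 2.63 ± 0.85. In nuclei of an inferred age under 4 h, the summed level was 69.99, 176.1, 114.7 and 148.9 CPM at 1-3 h, against 16.5, 114.1, 49.2 and 16.3 CPM at 0-2 h. In those nuclei 7 of 13 rose. Without experiment 11, only 1 of 16 tested was called, and without experiments 12, 2 and 10 the counts were 5 of 14, 7 of 16 and 11 of 12. DESeq2 called 6 of 19, and without the block none of the 15 was called. The list holds elav, which at 2-4 h had a UMI in 4454 of 17605 nuclei of experiment 11. Whether its signal here comes from differentiated neurons was not tested.

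Beside this, the median fold changes of the segmentation lists were higher among nuclei of an inferred age under 4 h, where 1276 of 7443 genes (17.1%) rose. There 11 of 14 gap, terminal and head genes rose (median 3.15), as did 9 of 9 pair-rule genes (median 3.20) and 11 of 12 segment polarity and homeotic genes (median 1.92). The summed level of the segment polarity and homeotic genes at 1-3 h was itself lower there in each experiment. It was 216.8, 97.8 and 191.3 CPM in experiments 2, 10 and 11, beside 237.9, 156.9 and 236.1 CPM over all nuclei. At 0-2 h it was 25.4, 27.1, 37.6 and 16.8 CPM in experiments 2, 10, 11 and 12. Over all nuclei the 0-2 h level was 23.9, 89.2, 38.8 and 16.7 CPM. The largest change was thus at 0-2 h in experiment 10, where the ratio of 1-3 h to 0-2 h became larger without the older nuclei. Whether the remaining signal of differentiated tissue plays a part in any single rise was not tested.

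Dorsal-ventral patterning genes rose in the lists of all 3 territories. Of 10 neurogenic ectoderm genes tested of 11, 10 rose (median log2 2.71). Of 14 dorsal ectoderm genes tested of 15, 11 rose and none fell (median 2.49), and 12 rose among nuclei of an inferred age under 4 h. Of 9 mesoderm genes tested of 10, 5 rose and 1 fell (median 2.18).

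In the lateral territory, sog, which encodes a secreted BMP antagonist (X:15603283-15633434), had 459.9, 171.1, 232.8 and 171.7 CPM at 1-3 h, against 17.97, 8.94, 27.4 and 20.1 CPM at 0-2 h (log2 3.55 ± 0.20, adjusted p = 7.0e-07). The gap between the windows was larger than the spread between experiments, and experiment 2 was the highest at 1-3 h. The Notch pathway gene sca (2R:12780541-12802010) had 69.4, 40.3, 113.7 and 68.5 CPM at 1-3 h, against 6.96, 3.28, 15.4 and 7.19 CPM at 0-2 h (log2 3.22 ± 0.16). The FGF ligand genes pyr and ths rose by 3.17 ± 0.53 and 2.84 ± 0.43. The smallest rise of this list was that of the EGF receptor ligand gene vn, at 0.75 ± 0.17, whose windows overlapped.

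In the dorsal territory, zen, a homeodomain factor of the dorsal-most cells (3R:6752864-6754194), had 10.8, 40.9, 22.3 and 44.4 CPM at 1-3 h, against 4.64, 3.41, 5.57 and 6.39 CPM at 0-2 h (log2 2.69 ± 0.29). Experiment 2 had the smallest step. The BMP ligand gene scw (2L:19699379-19700968) had 71.6, 67.2, 38.02 and 47.1 CPM at 1-3 h, against 7.54, 5.19, 6.46 and 10.6 CPM at 0-2 h (log2 2.82 ± 0.24). The gene of the protease that frees BMP from Sog, tld (3R:24749731-24753510), rose by 3.299 ± 0.24, the T-box gene Doc1 by 3.16 ± 0.49 and the LIM homeodomain gene tup by 2.85 ± 0.45. Of the 3 genes not called, ush had a fold change of 0.15 ± 0.24, peb 0.32 ± 0.16 and pnr 1.62 ± 0.65.

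In the ventral territory, twi, the bHLH activator of mesoderm (2R:22985374-23048325), had 23.9, 29.5, 45.5 and 40.4 CPM at 1-3 h, against 1.74, 2.53, 7.02 and 6.39 CPM at 0-2 h (log2 2.98 ± 0.23, adjusted p = 3.3e-06). For sna, the zinc finger repressor that sets the mesoderm border (2L:15476593-15478260), levels were 45.6, 49.5, 37.2 and 37.04 CPM at 1-3 h and 6.38, 8.94, 5.83 and 5.63 CPM at 0-2 h (log2 2.64 ± 0.17). Both genes showed 4 high and 4 low sums with nothing between, and sna varied little among the 4 experiments of a window. The FGF receptor adaptor gene stumps and the cadherin gene CadN rose by 2.45 ± 0.43 and 2.34 ± 0.37. The 1 mesoderm gene that fell was Mes2, with 108.5, 122.7, 154.4 and 148.9 CPM at 1-3 h and 150.7, 153.5, 208.6 and 196.97 CPM at 0-2 h (log2 -0.39 ± 0.07). Not called were Mef2 (-0.08 ± 0.07), zfh1 (0.05 ± 0.08) and tin (1.85 ± 0.75, adjusted p = 0.077).

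Genes of cellularization, the enclosure of the surface nuclei by membrane, and of gastrulation rose in 7 of 11 cases tested of 12 and fell in none (median log2 1.64), all 7 with windows that did not overlap. Sry-alpha had 0 UMIs in all 8 sums and so no measurement.

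The furrow gene slam (2L:6372388-6377284) had 570.5, 484.5, 842 and 621.7 CPM at 1-3 h, against 184.9, 160.8, 298.9 and 206.4 CPM at 0-2 h (log2 1.57 ± 0.06, adjusted p = 5.1e-08). This SE was the smallest among the rises of at least 1 log2 unit named here, and the step was nearly the same in each experiment. For bnk, which keeps the furrow network from closing early (3R:31193362-31194389), levels were 97.6, 173.1, 76.4 and 138.4 CPM at 1-3 h and 12.8, 7.37, 10.3 and 21.9 CPM at 0-2 h (log2 3.26 ± 0.26). The junction gene nullo (X:7049476-7050321) had 30.4, 12.3, 12.5 and 31.8 CPM at 1-3 h and 1.74, 1.02, 4.06 and 7.5 CPM at 0-2 h (log2 2.52 ± 0.35). These 3 are zygotic genes needed for the furrow, and halo, needed for droplet transport at the same stage, rose by 3.19 ± 0.37. The 4 not called, fog, T48, mist and Tollo, had fold changes of 0.16, -0.04, -0.04 and -0.04, with mist measured under its annotation name mthl1.

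Notch-related Bearded and Enhancer of split genes were near the limit of detection, so that 8 of 15 were tested, of which 3 rose and none fell (median 1.14). They were Tom (log2 1.69 ± 0.28), Brd (1.81 ± 0.49) and Ocho (1.51 ± 0.53, adjusted p = 0.046), all Bearded family members, which block the Notch ligand's ubiquitin ligase. Without experiment 11 or 12 only 1 was called. Among nuclei of an inferred age under 4 h, 4 were tested and 3 rose (median 1.94).

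In the JAK/STAT pathway, all 6 genes tested of 8 rose (median log2 0.27), but by very unequal amounts. The ligand gene upd1 (X:18305354-18309291) had 84.6, 46.6, 49.4 and 42.4 CPM at 1-3 h, against 2.32, 3.82, 8.03 and 4.35 CPM at 0-2 h (log2 3.33 ± 0.26, adjusted p = 3.6e-06). The feedback inhibitor gene Socs36E had 56.4, 33.5, 43.5 and 24.1 CPM at 1-3 h, against 5.22, 8.39, 5.07 and 3.14 CPM at 0-2 h (log2 2.76 ± 0.24). Ligand and inhibitor did not overlap between windows. The other 4, all maternally supplied, moved little, with Stat92E at 0.29 ± 0.07, hop (the kinase) at 0.26 ± 0.06, dome (the receptor) at 0.24 ± 0.07 and Ptp61F (a phosphatase) at 0.23 ± 0.07. Counts were 3 without experiment 12 and 4 without experiment 2, and 2 of 8 without the filter on low counts.

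**Figure D1:**
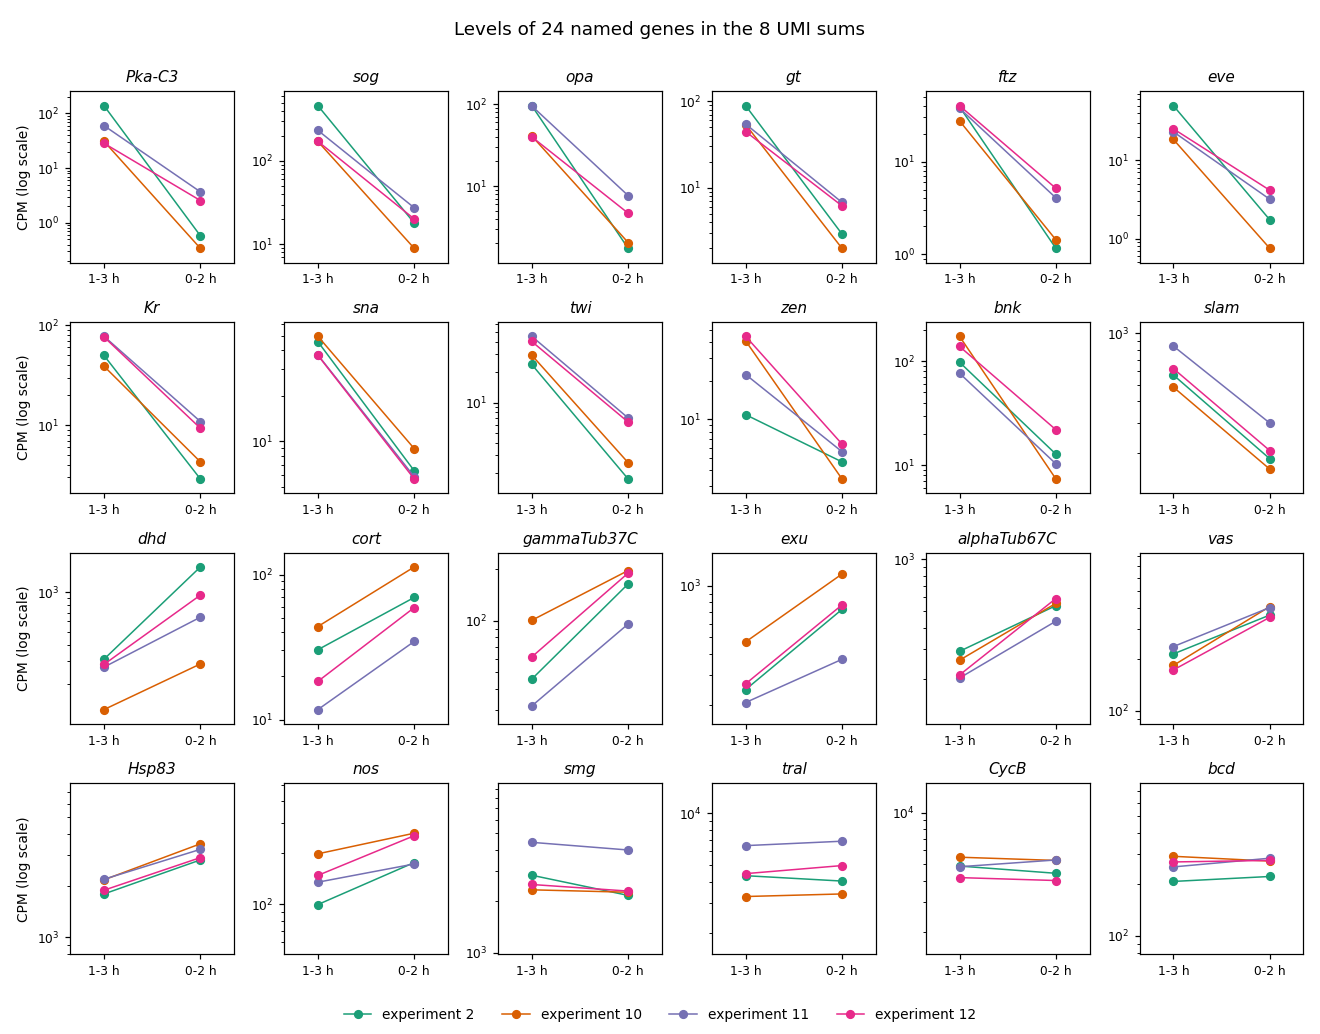
Level (CPM, log scale, each panel with its own range) of 24 named genes in the 1-3 h sums (left) and the 0-2 h sums (right), 1 line per experiment. In the top 12 genes all 4 lines slope the same way and the sums do not overlap, as for ftz with 27.5 to 40.1 CPM at 1-3 h and 1.16 to 5.15 CPM at 0-2 h. The lower panels show falls (dhd, vas) and levels not called in the reported fit (smg, tral, CycB, bcd).

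The genes that count X chromosomes and compensate their dose also changed. Of 18 tested of 19, 11 rose and 1 fell (median log2 0.34), and 12 rose among nuclei of an inferred age under 4 h. Without the filter on low counts 6 rose, and without the experiment as a block 4 rose. The noncoding RNA lncRNA:roX1, part of the male dosage compensation complex (X:3857230-3862697), had 650.8, 357.1, 686 and 409.2 CPM at 1-3 h, against 62.6, 73.8, 70.6 and 46.5 CPM at 0-2 h (log2 2.97 ± 0.15, adjusted p = 3.7e-07). It was high in all 4 of the 1-3 h sums. Its partner lncRNA:roX2 had 6 UMIs at 1-3 h and 10 at 0-2 h over all sums and was not tested.

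Sxl, the sex switch gene (X:7074550-7098053), had 505.4, 366.6, 522.5 and 348.1 CPM at 1-3 h, against 197.7, 196.3, 233.4 and 233.8 CPM at 0-2 h (log2 0.95 ± 0.10). The X-linked signal elements sisA (2.50 ± 0.34) and sc (2.31 ± 0.43) rose, as did the autosomal counter-signal dpn (2.56 ± 0.24). For msl-2, the protein subunit made only in males (2L:3462218-3466112), levels were 30.4, 15.5, 13.7 and 13.7 CPM at 1-3 h and 4.64, 7.71, 6.55 and 4.56 CPM at 0-2 h (log2 1.42 ± 0.28), with experiment 2 highest at 1-3 h. The complex members msl-1 (0.02 ± 0.06), msl-3 (-0.06 ± 0.08) and mle (0.26 ± 0.11) were not called, and mof rose by 0.36 ± 0.08. The 1 gene that fell was da (-0.28 ± 0.06), a maternally loaded bHLH partner, which was not called without experiment 12.

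Of 10 activators of the zygotic genome and their partners, 6 rose and 1 fell (median log2 0.23). The pioneer factor gene zld (X:19766465-19783548) had 1453, 921, 1738 and 993 CPM at 1-3 h, against 939.7, 745, 1337 and 776 CPM at 0-2 h (log2 0.41 ± 0.07, adjusted p = 7.9e-04). Its 1-3 h level was the higher one in each experiment, though the ranges overlapped across experiments. The epidermal factor gene grh (2R:17801132-17842820) had 134.5, 64.2, 117.98 and 71.3 CPM at 1-3 h, against 6.96, 12.8, 15.6 and 9.61 CPM at 0-2 h (log2 2.86 ± 0.19). The gene that fell was dl, the maternal dorsal-ventral morphogen, with 186.6, 183.8, 141.5 and 135.4 CPM at 1-3 h and 205.2, 233.1, 202.1 and 189.7 CPM at 0-2 h (log2 -0.40 ± 0.07). Without the filter on low counts only 2 of the 10 rose. The list holds Stat92E, gro and opa, which other lists hold too.

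Maternal transcripts moved unevenly. Of 14 axis and germ plasm transcripts, 7 fell and 1 rose (median log2 -0.44). Of 14 maternal RNA regulators tested of 16, 4 fell and 2 rose (median -0.05). Of 19 genes of the syncytial divisions, 8 fell and 2 rose (median -0.17), and 9 fell among nuclei of an inferred age under 4 h. Beside 19.6% that fell and 14.8% that rose over all genes tested, the counts of the RNA regulators were near the background.

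Among axis and germ plasm transcripts, exu, an RNA-binding protein that carries bicoid RNA (2R:20667427-20671083), had 247.3, 469.6, 207.7 and 267.2 CPM at 1-3 h, against 727, 1170.2, 371.4 and 772 CPM at 0-2 h (log2 -1.30 ± 0.10, adjusted p = 4.3e-06). For vas, the germline DEAD-box helicase (2L:15061656-15074311), levels were 214.8, 184.1, 237.1 and 173.2 CPM at 1-3 h and 362.3, 406.1, 400.9 and 351.6 CPM at 0-2 h (log2 -0.95 ± 0.08). The chaperone gene Hsp83 (3L:3192969-3197059), whose RNA is cleared outside the germ plasm, had 1788, 2161, 2178 and 1879.7 CPM at 1-3 h and 2824, 3508, 3256 and 2914 CPM at 0-2 h (log2 -0.64 ± 0.06). For vas and Hsp83 each 1-3 h sum lay below each 0-2 h sum, whereas exu overlapped between experiments but fell in each.

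The germ cell repressor gene pgc fell by 0.67 log2 units and the germ plasm scaffold gene tud by 0.66. The posterior determinant nos had 99.8, 197.5, 134.8 and 147.7 CPM at 1-3 h, against 175.7, 260.6, 172.3 and 251.98 CPM at 0-2 h (log2 -0.55 ± 0.09). By contrast bcd, the anterior determinant (3R:6755842-6759466), had 208.2, 292.03, 253.2 and 270.7 CPM at 1-3 h, against 222.6, 273.8, 284.6 and 276.3 CPM at 0-2 h (log2 -0.04 ± 0.07, adjusted p = 0.7). Its windows overlapped almost fully. The 1 gene that rose was stau, the double-stranded RNA-binding factor that localizes bcd RNA, at 0.29 ± 0.08, a call lost without the filter on low counts.

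Among the RNA regulators, smg, which recruits the deadenylase to maternal RNAs (3L:8990317-8997989), had 2835, 2330.2, 4414 and 2504 CPM at 1-3 h, against 2162, 2256, 3982 and 2291 CPM at 0-2 h. It was higher at 1-3 h in 4 of 4 experiments, by 0.17 ± 0.07 on the log2 scale, and did not pass the test (adjusted p = 0.078). It did pass with library sizes alone (adjusted p = 0.042), with DESeq2 (0.0075), in nuclei thinned to 250 UMIs (0.021) and without experiment 10 (0.035). The RNA granule gene tral (3L:12515059-12520954) had 4326, 3268, 6482 and 4447 CPM at 1-3 h and 4024, 3384, 6878 and 4956 CPM at 0-2 h (log2 -0.05 ± 0.07, adjusted p = 0.61). The kinase gene png (X:1356488-1357601), which starts maternal clearance at egg activation, had 32.5, 52.1, 13.3 and 25.3 CPM at 1-3 h and 73.6, 99.7, 31.5 and 63.5 CPM at 0-2 h (log2 -1.15 ± 0.12). The kinase transcript fell in each experiment. Its activator gene gnu fell by 0.61 and the translational regulators bru1 and orb fell by 0.41 each, and Edc3 (0.27 ± 0.08) and Not1 (0.19 ± 0.06), of the decapping and deadenylation machinery, rose. The number of genes of this list called higher turned on the setting, with 5 under DESeq2 and in thinned nuclei, 1 without experiment 2 or 11 and none without experiment 12 or without the filter, while 3 to 5 were called lower in each of these and without experiment 10. The gene cup had 0 UMIs in all 8 sums.

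Among genes of meiosis and the syncytial divisions, dhd, a female germline thioredoxin (X:5312171-5313125), had 310.2, 128.6, 270.1 and 283.3 CPM at 1-3 h, against 1554 CPM in experiment 2, 285.4 CPM in experiment 10 and 949.9 CPM in experiment 12 at 0-2 h, with experiment 11 between the last pair (log2 -1.56 ± 0.14, adjusted p = 9.6e-06). It fell in each experiment, though experiment 10 was low in both windows. For cort, a meiotic activator of the anaphase-promoting complex (2L:6674682-6676635), levels were 30.4, 43.9, 11.8 and 18.4 CPM at 1-3 h and 69.6, 112.8, 34.6 and 59.2 CPM at 0-2 h (log2 -1.50 ± 0.12). The maternal tubulin genes gammaTub37C (-1.40 ± 0.12) and alphaTub67C (-1.18 ± 0.09) fell as well. For alphaTub67C no sum of the 1-3 h window reached the 0-2 h range. The Polo inhibitor gene mtrm (-0.83 ± 0.12), the checkpoint kinase genes lok (-0.49 ± 0.06) and mei-41 (-0.67 ± 0.12), and Cks30A (-0.67 ± 0.23) made up the 8.

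The transcripts of the mitotic cyclin gene CycB and of the Cdc25 phosphatase genes stg and twe did not pass the test. The cyclin gene CycB (2R:22803521-22806948) had 4866, 5480.1, 4821 and 4165 CPM at 1-3 h, against 4414, 5247, 5280.4 and 4004 CPM at 0-2 h (log2 0.03 ± 0.07, adjusted p = 0.76). For stg, 1 of the 2 Cdc25 phosphatases (3R:29251826-29255800), levels were 1149.7, 1042, 1166 and 978 CPM at 1-3 h and 982, 1069.5, 1218 and 980.3 CPM at 0-2 h (log2 0.02 ± 0.07). Neither differed beyond the spread between experiments, and twe, the other Cdc25, had a fold change of 0.15 ± 0.06 (adjusted p = 0.088). For twe the call was made by DESeq2 (adjusted p = 0.021) and in thinned nuclei (0.045). The 2 genes of this list that rose were CycB3 (0.33 ± 0.06) and the anaphase activator gene fzy (0.27 ± 0.07). The count of 2 became 4 with DESeq2, in thinned nuclei and without experiment 11, 1 without experiment 12 and none without the filter.

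The 3 mitotic brakes all changed. Z600, a zygotic inhibitor of mitotic cyclins (3L:15509061-15509513), had 8.68, 3.72, 6.27 and 13.2 CPM at 1-3 h, against 1.16, 0.0682, 1.07 and 1.76 CPM at 0-2 h (log2 3.16 ± 0.47). For trbl, which promotes loss of the String protein (3L:20396288-20401609), levels were 114.97, 133.3, 115.2 and 99.6 CPM at 1-3 h and 63.8, 76.6, 52.2 and 62.96 CPM at 0-2 h (log2 0.85 ± 0.09). Both were higher in each experiment without overlap. The third, dap, a Cyclin E kinase inhibitor, had 132.3, 139.5, 193.2 and 216.5 CPM at 1-3 h and 240.6, 179.8, 287.9 and 384.4 CPM at 0-2 h (log2 -0.62 ± 0.09), so it fell.

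Of 4 variant and linker histone genes, His3.3A rose (0.39 ± 0.07), BigH1, the embryonic linker histone, fell (-0.32 ± 0.09) and His2Av (-0.10 ± 0.09) and His3.3B (0.08 ± 0.07) were not called. For so few genes, 1 rise and 1 fall are near the 14.8% and 19.6% of all tested. The fall of BigH1 was not called without experiment 2 (adjusted p = 0.062), 11 (0.14) or 12 (0.12), and experiment 10 showed none (log2 ratio 0.016). The rise of His3.3A was not called without the filter (0.39). Of the histone cluster genes, 1 had enough UMIs to be tested and was not called, so the replication-dependent histones are not measured here. Of 9 ovary and eggshell genes only yl, the yolk receptor of the oocyte, had enough UMIs, at 692, 638.1, 788 and 478.6 CPM at 1-3 h and 864, 1001, 1214 and 725 CPM at 0-2 h (log2 -0.56 ± 0.07). The other 8 had 0 to 24 UMIs each per window over the 4 sums, so the yolk protein and eggshell genes were near 0 in both windows.

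Of the machinery lists, that of cytosolic ribosomal proteins was the flattest by its median. Of 85 cytosolic ribosomal protein genes tested of 92, 3 rose and none fell (median log2 -0.04), and 6 rose and 1 fell among nuclei of an inferred age under 4 h. Of 25 mitochondrial genes tested of 38, 2 rose (median 0.22), mt:Cyt-b by 0.33 and mt:CoII by 0.37. Among nuclei of an inferred age under 4 h, 6 of the 25 rose (median 0.32). Of 71 nuclear genes for mitochondrial ribosomal proteins tested of 73, 15 fell and none rose (median -0.35; 16 of 70 fell among nuclei of an inferred age under 4 h), the largest fall being that of mRpL38 (-1.55 ± 0.18). The share of that list that fell, 15 of 71, was close to the 19.6% of all genes tested. None of its genes rose, beside 14.8% of all tested, and its median lay below the 0.0045 of all tested.

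**Figure D2:**
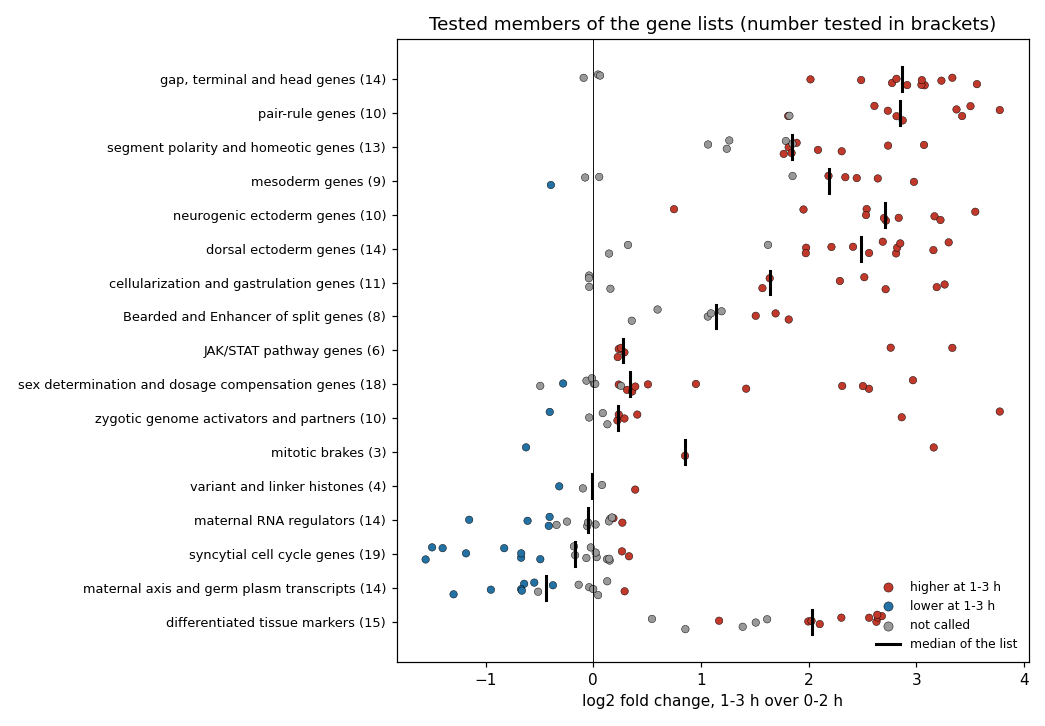
Each point is a tested member of a gene list, placed by its log2 fold change, 1-3 h over 0-2 h (x axis). Red points rose, blue points fell, gray points were not called and the black bar is the list's median. The medians of the segmentation and dorsal-ventral lists lie between 1.84 and 2.86, and those of the 3 maternal lists between -0.44 and -0.05.

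The 10 largest falls with at least 10 CPM at 0-2 h were, apart from hoip and GstE6, genes known only by a number. CG31075 (3R:26985624-26988517) had 2.17, 21.2, 5.1 and 5.21 CPM at 1-3 h, against 54.5, 92.5, 17.9 and 32.03 CPM at 0-2 h (log2 -2.36 ± 0.21, adjusted p = 8.9e-06). It fell in each experiment, but experiment 10 at 1-3 h was above experiment 11 at 0-2 h. CG9926 (-2.18 ± 0.31), CG15047 (-2.07 ± 0.24), CG5194 (-1.90 ± 0.29), CG13295 (-1.82 ± 0.33), CG12811 (-1.78 ± 0.32), CG12321 (-1.78 ± 0.30) and CG15093 (-1.76 ± 0.16) fell too. The windows of CG9926, CG12811 and CG12321 overlapped. At 1-3 h they had 1, 0 and 0 UMIs in experiment 2 and 2, 4 and 7 in experiment 11. Without the experiment as a block their edgeR adjusted p was 0.14, 0.18 and 0.15. For hoip, a component of spliceosomal and nucleolar particles (2L:9699791-9700459), levels were 4.34, 1.93, 1.96 and 1.94 CPM at 1-3 h and 19.1, 6.01, 7.02 and 10.99 CPM at 0-2 h (log2 -2.04 ± 0.33). The glutathione transferase gene GstE6 fell by 1.80.

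The genes that rose and fell also differed in structure, which the comparison did not use. Of 7550 gene rows, 7143 matched the annotation. The median span of protein-coding genes was 11778 bp for genes that rose by at least 1 log2 unit and 1656 bp for genes that fell by at least 1, beside 3105.5 bp over all tested. The risen genes were thus longer at the median than all tested, unlike the short genes of the earliest zygotic transcripts. Genes without an intron made up 13.2% of those risen and 12.5% of those fallen, beside 8.19% of all. Long noncoding RNAs were 6.09% of the risen genes (28 genes) and 0.357% of the fallen ones (1 gene), beside 2.66% of all. The X chromosome held 13.7% of the risen and 21.4% of the fallen genes, beside 18.1% of all. These shares are descriptions, and the groups also differ in level. Of 70 transposon insertion rows tested, 10 rose and 1 fell, beside 14.8% that rose and 19.6% that fell over all tested. The rises were thus near the share of all tested, and the falls below it.

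Experiments 11 and 12 also hold nuclei of the 2-4 h window (17605 and 1318), which puts the levels in a series of 3 windows, here in CPM by library size. The 1-3 h sums enter both steps of such a series. For ftz, levels at 0-2, 1-3 and 2-4 h were 3.61, 32.9 and 163.8 CPM in experiment 11 and 5.05, 41.1 and 167.02 CPM in experiment 12. For sog they were 24.4, 203.8 and 1538 CPM and 19.7, 176.04 and 2155 CPM. So the levels of these zygotic genes at 1-3 h were still far below those at 2-4 h. The median over the genes that rose by at least 1 log2 unit was 2.01, 10.3 and 53.9 CPM in experiment 11 and 1.152, 7.97 and 66.4 CPM in experiment 12. These genes were chosen for their rise between the first 2 windows, and 88.98% of them in experiment 11 and 95.1% in experiment 12 were higher at 2-4 h than at 1-3 h. Over all genes tested the medians were 39.2, 36.4 and 27.7 CPM in experiment 11 and 55.1, 49.01 and 34.96 CPM in experiment 12, and 40.7% and 39.8% were higher at 2-4 h.

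For dhd, levels over the 3 windows were 574.1, 236.4 and 34.1 CPM in experiment 11 and 932, 290.5 and 150.2 CPM in experiment 12. For Hsp83 they were 2894, 1907 and 352.2 CPM and 2858, 1928 and 352.2 CPM. These maternal transcripts were lower at each later window. For smg they were 3539, 3864 and 1850.0 CPM and 2248, 2567 and 974.9 CPM. For tral they were 6113, 5674 and 2622 CPM and 4861, 4560.3 and 1589 CPM. Both smg and tral were lower at 2-4 h than in both earlier windows. The same holds for bcd (252.9, 221.7 and 80.6 CPM and 271.04, 277.6 and 63.4 CPM) and for CycB (4693, 4220.0 and 1585 CPM and 3928, 4272 and 1563 CPM).

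**Figure D3:**
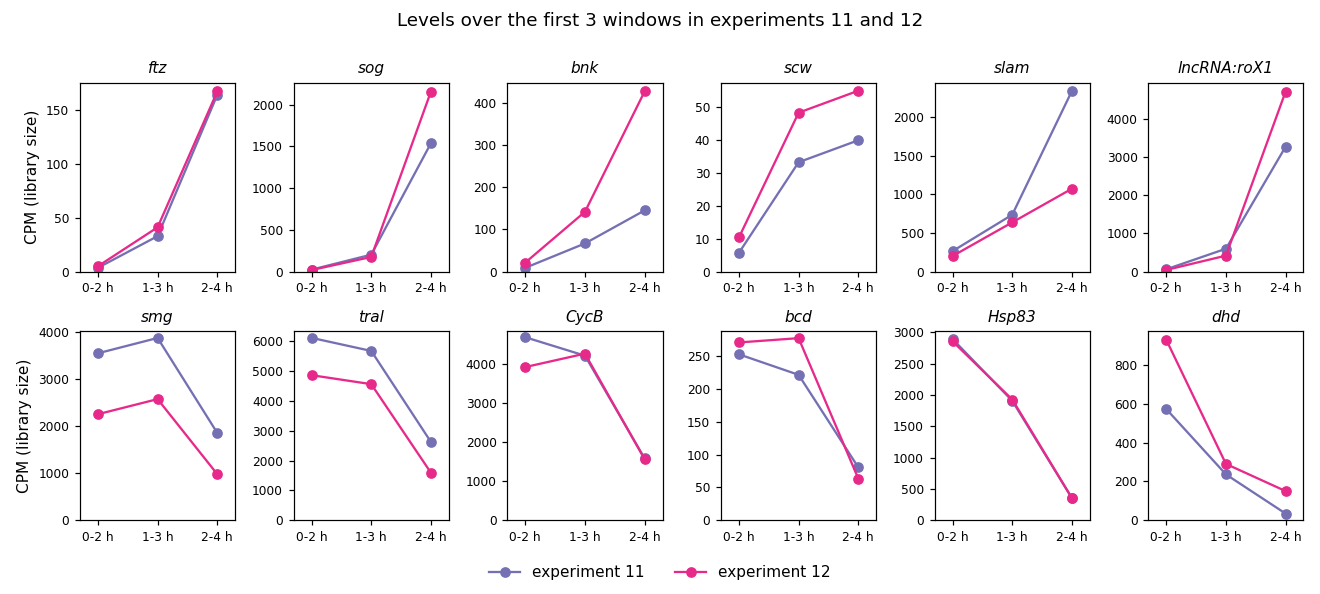
Levels (CPM by library size, linear axes from 0) of 12 genes at 0-2, 1-3 and 2-4 h, 1 line for experiment 11 and 1 for experiment 12, without error bars since each point is 1 sum. ftz and sog climb steeply after 1-3 h, dhd loses more CPM before it than after it, and smg, tral, CycB and bcd drop after it.

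Finally, pairs of patterning genes were examined nucleus by nucleus at 1-3 h. The number of nuclei with a UMI of both genes was set against the number given by each nucleus's depth and each gene's overall level, with an exact 95% Poisson interval that covers counting error only. For sna and twi, both mesodermal, 47 nuclei held both, 1.11 times the number given by depth (0.818 to 1.48). For sna and zen, of opposite poles of the dorsal-ventral axis, 39 nuclei held both, a ratio of 0.993 (0.706 to 1.36). For eve and ftz, of alternating stripes, 18 held both, a ratio of 0.648 (0.384 to 1.02). Over all 1-3 h nuclei the 12 pairs fixed for this had intervals that include 1. Among nuclei of an inferred age under 4 h, eve and ftz gave 0.614 (0.357 to 0.982), just below 1, and the other 11 pairs had intervals that include 1. With experiments left out in turn, the ratio of eve and ftz over all nuclei was 0.579 (0.324 to 0.956) without experiment 11 and 0.716 (0.381 to 1.22) without experiment 10. At 2-4 h in experiments 11 and 12 it was 1.08 (0.981 to 1.18). The intervals are not adjusted for the number of pairs.

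Pairs of differentiated tissue markers, added after the data were seen, gave ratios above 1 in the same nuclei. Mhc and Act57B, both of muscle, were found together 6.77 times as often as depth gives (5.91 to 7.72), and elav and brp, both of neurons, in 35, a ratio of 9.08 (6.33 to 12.6). Mhc and elav, of different tissues, gave 3.96 (3.11 to 4.96), but 66 of the 75 such nuclei came from experiment 10, and without it the ratio was 1.65 (0.752 to 3.12). Among nuclei of an inferred age under 4 h the ratios were 3.57 (2.37 to 5.16), 8.41 (5.39 to 12.5) and 1.66 (0.906 to 2.78). For Mhc and Act57B there it was 7.19 (4.19 to 11.5) without experiment 10 and 1.99 (0.993 to 3.56) without experiment 12. The ratios above 1 did not extend to every window. At 2-4 h in experiments 11 and 12, elav and brp gave 1.05 (0.913 to 1.19) and Mhc and elav 1.37 (0.657 to 2.52). Mhc and Act57B were found together in 0 nuclei there, with 0.399 given by depth.

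**Figure D4:**
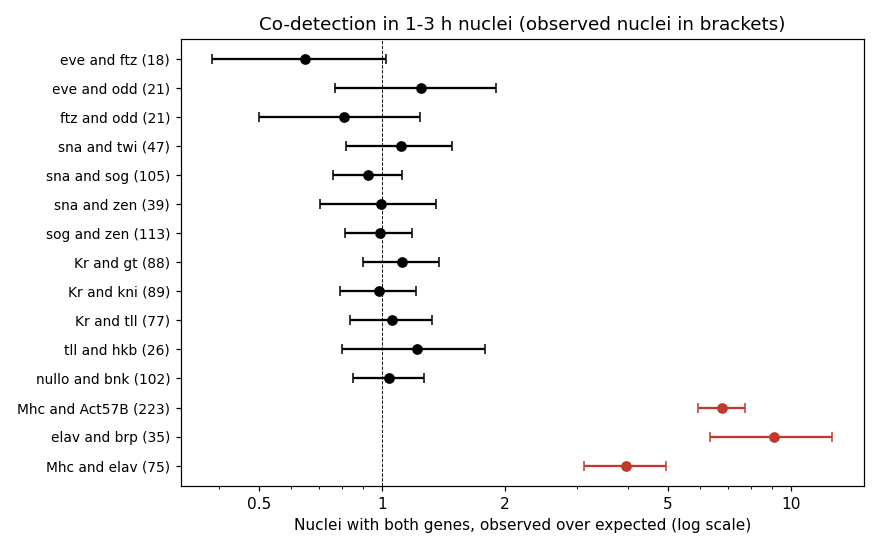
For each gene pair (y axis, with the number of 1-3 h nuclei holding both), the observed over the expected number of such nuclei (x axis, log scale) and its 95% Poisson interval. Black pairs are patterning genes, whose intervals all include 1 (dashed line), and red pairs are differentiated tissue markers, with ratios of 3.96 to 9.08, the lowest of which was 1.65 without experiment 10.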

How the data were processed

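The deposited matrix holds raw UMI counts per gene and nucleus, which the authors made by mapping sci-RNA-seq3 reads to dm6 (BDGP6), with STAR 2.7.3a named in the submitters' processing notes. The authors state that nuclei with too few or too many UMIs or genes, or with over 10% ribosomal reads, were removed, and that doublets were removed with a modified DoubletFinder. Nuclei above that ribosomal limit are nevertheless present in these windows, up to 3.66% of a sum, and were kept. No doublet caller was run here. The deposited percent columns give ribosomal and mitochondrial UMIs per nucleus, and the inferred age is a deposited score in hours, from the authors' neural network.

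UMIs were summed per experiment and window into 8 sums (Python 3.11.15, NumPy 2.4.6, pandas 2.3.3, SciPy 1.17.1), leaving out experiment 4 with 83 nuclei. At 1-3 h and 0-2 h, experiment 2 gave 633 and 1490 nuclei (median 509 and 570 UMIs each), experiment 10 gave 20513 and 19646 (425 and 434), experiment 11 gave 4455 and 29454 (506 and 751) and experiment 12 gave 30383 and 28261 (487 and 612). Genes passing edgeR's filterByExpr were fitted in R 4.3.3 with edgeR 4.0.16 (TMM, quasi-likelihood, experiment as block, false discovery rate 0.05). The block follows the shared experiment. Same-experiment sums deviated from their window's mean together, with correlations of 0.266, 0.717, 0.805 and 0.694 in experiments 2, 10, 11 and 12. Alternatives were no block, library sizes alone, no filter, DESeq2 1.42.0, nuclei of an inferred age under 4 h, nuclei of at least 400 UMIs, nuclei thinned to 250 UMIs, and each experiment left out. Counts of list members and co-detection ratios under these alternatives were added after the data were seen. The scripts were tested on simulated data.

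Named genes were 20 fixed ones, the 10 largest called changes in each direction (same sign in all 4 experiments, at least 10 CPM, no transposon rows) and up to 4 called members per list with the largest changes, 94 in all. Other list members named in the text were added to complete counts and were chosen after their values were seen. The members and the gene lists were chosen with earlier results of these data known. Gene positions come from Ensembl release 115 of the same assembly, in which nos and h were not matched. No sequence is printed.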

Additional observations from a re-analysis of the deposited data

Results flagged for a closer look

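In 5 of 88 groups of 4 sums, 1 sum stood apart from the other 3 by Dixon's criterion, and chance alone flags about 1 group in 20. The smg level of experiment 11 at 0-2 h was 3982 CPM, while the other 0-2 h sums had 2162 to 2291 CPM. The msl-2 level of experiment 2 at 1-3 h was 30.4 CPM, beside 13.7 to 15.5 CPM in the others, and its hbn level was 21.7 CPM, beside 5.21 to 6.76 CPM. For hoip the same sum had 4.34 CPM, beside 1.93 to 1.96 CPM. In that sum 1 UMI is 2.17 CPM, so its flagged levels of hoip, hbn and msl-2 rest on few UMIs. The CG31075 level of experiment 10 at 1-3 h was 21.2 CPM, beside 2.17 to 5.21 CPM.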

How the results depend on the processing

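Leaving out the replicate block (the experiment) brought the calls to 4.36% of the genes tested, beside 34.38%, with 3.01% higher and 1.352% lower. Without the filter on low counts, 3.97% of 16268 genes were called higher, higher calls were 30.6% of the calls, beside 42.9%, and the median of the genes of the reported fit shifted to -0.13. DESeq2 gave 51.9%, and the fit without the block 68.98%, so that higher calls outnumbered lower ones. Leaving out 1 experiment gave 19.2% to 37.97% called, 7.12% to 16.1% higher and 12.04% to 21.9% lower, with the lowest shares without experiment 12 and the next without experiment 11. Counts of calls under the other settings stayed within 1.5 times. Some genes without a call turned sign. With 1 experiment left out, bcd ranged between -0.081 and 0.056 (positive without experiment 11), CycB between -0.029 and 0.12 and stg between -0.059 and 0.091 (both negative without experiment 2). Without the filter CycB was at -0.095 and stg at -0.10, and after thinning bcd was at 0.034 and tral at 0.0018. Of the 88 called named genes none turned sign, and calls were kept in 894 combinations of gene and setting and lost in 71, 40 of them without the block. Among genes not called, 6 combinations gained a call, 4 of them of smg and 2 of twe. Without the block, the lists with a count changed by over 1.5 times that are not named with it above were the mesoderm (3 of 9 higher), dorsal ectoderm (7 of 14 higher), Bearded (1 of 8 higher), JAK/STAT (2 of 6 higher), activator (2 of 10 higher), axis and germ plasm (1 of 14 lower) and syncytial genes (3 of 19 lower) and the mitotic brakes (1 of 3 higher), with no call among 14 RNA regulators and 4 histones or for yl. The cause of these changes was not tested. Experiment 2, with the fewest UMIs, limits what can be said of rare transcripts.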

Other observations

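Outside the lists and the naming rule, several more abundant genes changed, chosen here after their values were seen. The homeodomain cofactor gene hth had 727, 378.6, 544.02 and 301.6 CPM at 1-3 h, against 31.9, 85.2, 68.7 and 37.9 CPM at 0-2 h (log2 2.92 ± 0.22, edgeR adjusted p = 2.8e-06). For Nrt, a transmembrane adhesion protein, levels were 297.2, 282.03, 469.6 and 304.4 CPM at 1-3 h and 42.9, 79.4, 147.2 and 89.2 CPM at 0-2 h (log2 1.86 ± 0.11). The nuclear envelope gene kuk, which acts in nuclear elongation at cellularization, had 1239, 974, 1586 and 1427 CPM at 1-3 h and 689.9, 662.95, 993 and 994 CPM at 0-2 h (log2 0.64 ± 0.07). Among abundant falls, the small heat shock gene Hsp26 had 236.5, 239.9, 126.2 and 122.2 CPM at 1-3 h, against 756, 584.6, 298.8 and 405.3 CPM at 0-2 h (log2 -1.47 ± 0.09). RnrS, the small subunit of ribonucleotide reductase, had 232.1, 353.96, 145.4 and 223.5 CPM at 1-3 h and 680.6, 768, 381.3 and 651.7 CPM at 0-2 h (log2 -1.38 ± 0.08). Jabba, the lipid droplet anchor of maternal histones, fell by 0.80 on the log2 scale.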
